A study of Mus musculus with 6 samples.

Results

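Transcript levels of 8 genes of the Nodal pathway, namely Nodal, Lefty1, Lefty2, Tdgf1, Acvr2b, Acvr1b, Smad2 and Smad3, were compared across 6 gene arrays of mouse embryonic stem cells. The genes were taken by symbol: a feature, that is a set of probes for 1 transcript summarised into 1 value, belonged to a gene when the platform table gave it exactly that symbol. Each gene had 1 feature, so 8 of 34760 features were members, and all 8 passed the filter on dim features, which left 16912 for testing. No feature with several symbols named any of them.

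All arrays came from C57Bl/6 cells that stably carried the chimeric receptor GRgp-Y118F, controls included. The name stands for the outer part of the receptor for granulocyte colony-stimulating factor (GCSF) joined to the inner part of gp130 in which the tyrosine that recruits SHP2, and through it ERK signalling, is changed. Of the 3 groups of 2 arrays, control was untreated, GCSF received GCSF for 1 h, and LIF/PD received leukaemia inhibitory factor (LIF) with 1 uM PD0325901, an inhibitor of the ERK-activating kinase MEK, also for 1 h. Treated cells were first kept for 6 h in serum-free medium. The sources used here do not say whether the controls were serum-starved, what drives the receptor or how many clones were used. The study sought genes downstream of STAT3, the transcription factor that LIF activates through gp130.

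Nodal is a secreted ligand of the TGF-beta family. It binds a type II receptor such as the one encoded by Acvr2b and the type I receptor kinase encoded by Acvr1b, with Cripto, the product of Tdgf1, as a membrane-bound co-receptor, and the activated kinase phosphorylates SMAD2 and SMAD3, which enter the nucleus with SMAD4. There they act with DNA-binding partners such as FOXH1 on genes that include Nodal itself and Lefty1 and Lefty2, whose secreted products block Nodal and so close a feedback loop. Mouse embryonic stem cells make Nodal, Cripto and the Lefty proteins and signal to themselves through this pathway.

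The labels and the arrays disagreed in 1 respect that touches every direction below. Dusp6 and Spry4, feedback genes that ERK signalling keeps on, are known to drop when MEK is inhibited. Their log2 values were 10.47 and 10.52 for Dusp6 and 9.97 and 10.04 for Spry4 in the controls, 8.93 and 8.94 and 8.12 and 8.22 on the arrays labelled GCSF, and 10.51 and 10.54 and 10.12 and 9.98 on the arrays labelled LIF/PD. They were thus low under the label that names no MEK inhibitor. Socs3, a feedback gene that STAT3 induces, was on 2 features. On one it was higher than control by 3.13 log2 in GCSF and 2.62 in LIF/PD (limma, adjusted p = 2.7e-07 and 1.21e-06), and on the other, dimmer one the differences were 0.51 (adjusted p = 0.0219) and 0.39 (adjusted p = 0.329, not called). The brighter feature was thus high under both labels, and on it LIF/PD minus GCSF was -0.51 log2 (limma, adjusted p = 0.0123). Whether the 2 labels were exchanged was not tested, and if they were, every sign between LIF/PD and GCSF would turn and the comparisons against control would change places. The groups are nevertheless called by their labels here, and a direction given for GCSF or LIF/PD means the arrays labelled so.

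The stem cell identity of the samples was checked on markers. All 6 stem cell markers (Pou5f1, Nanog, Sox2, Zfp42, Dppa5a and Utf1) passed the filter, with summed log2 values of 72.0 to 72.2 in control, 72.1 in GCSF and 72.2 to 72.5 in LIF/PD. All 5 feeder fibroblast markers also passed (summed log2 values 48.9 to 49.0 over the 6 arrays), as did 3 of 5 primitive endoderm markers and all 3 mesoderm markers that had a feature. Among these, Col3a1 of the fibroblast list was higher in GCSF than in control (0.29 ± 0.05 log2, adjusted p = 0.0410 with limma), while the other 4 fibroblast markers did not pass there, at -0.01 for Col1a1, 0.02 for Col1a2, -0.10 for Thy1 and -0.13 for S100a4. Utf1 was higher in LIF/PD than in GCSF (0.23 ± 0.03, adjusted p = 0.0137). Their part in the results below was not tested. In cultures measured in bulk, a change in the mix of cells and a change of RNA per cell cannot be told apart.

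Of the 8 members, the co-receptor gene Tdgf1 was the one that changed in GCSF against control, where 1.17% of all tested features passed, and the ligand gene Nodal came closest to it with the opposite sign. The bases before their transcription start are shown because these 2 genes carry the differences described next. Each sequence is the 250 bases that end just before the RefSeq start, taken from RefSeq on GRCm38.p6 and read 5′ to 3′ on the gene's own strand. The first lies at chr9:110946159-110946408 on the minus strand and the second at chr10:61417722-61417971 on the plus strand. Capitals mark matches, on either strand, to CAGAC, the short element that SMAD proteins bind, and to AATNNACA, a loose form of the FOXH1 element.
Tdgf1: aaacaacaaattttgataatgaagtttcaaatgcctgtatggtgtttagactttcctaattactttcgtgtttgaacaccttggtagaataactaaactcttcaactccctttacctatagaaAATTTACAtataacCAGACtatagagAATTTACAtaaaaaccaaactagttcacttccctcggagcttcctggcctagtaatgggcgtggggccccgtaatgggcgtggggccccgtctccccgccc
Nodal: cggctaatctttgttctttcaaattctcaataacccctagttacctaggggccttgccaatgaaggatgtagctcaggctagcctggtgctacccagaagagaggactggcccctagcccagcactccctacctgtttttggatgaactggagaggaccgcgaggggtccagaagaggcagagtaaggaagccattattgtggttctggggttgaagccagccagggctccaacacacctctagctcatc

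In the Tdgf1 window the same 8 letters, AATTTACA, stood at 2 places, starting 127 and 101 bases before the start, and CAGAC stood between them, starting 113 bases before it. Of 32851 RefSeq windows of this length 10.9% held AATNNACA, 1.12% held it at 2 or more places and 42.2% held CAGAC. The stricter forms AATAAACA, AATACACA, AATCAACA and AATCCACA, with A or C in the middle as FOXH1 prefers, were in 3.93% of windows and in neither sequence shown. The Nodal window held none of these motifs. Neither window held TTCNNNGAA, the palindrome that STAT proteins bind, which 7.02% of windows held. None of these motifs overlapped another in the windows shown, and a match is a description of letters, not a binding site. The Tdgf1 window was AT-rich, with a GC content of 42.0% against a median of 52.4% over all windows, and Nodal lay at 53.2%. The motif shares above were taken over windows of every GC content and were not matched to that of Tdgf1. The windows of Acvr2b, Acvr1b and Smad3 were GC-rich at 72.8%, 78.8% and 69.2%, and of these only that of Acvr2b held a CAGAC. Windows of Lefty1, Lefty2 and Smad2 were not examined.

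**Figure D1:**
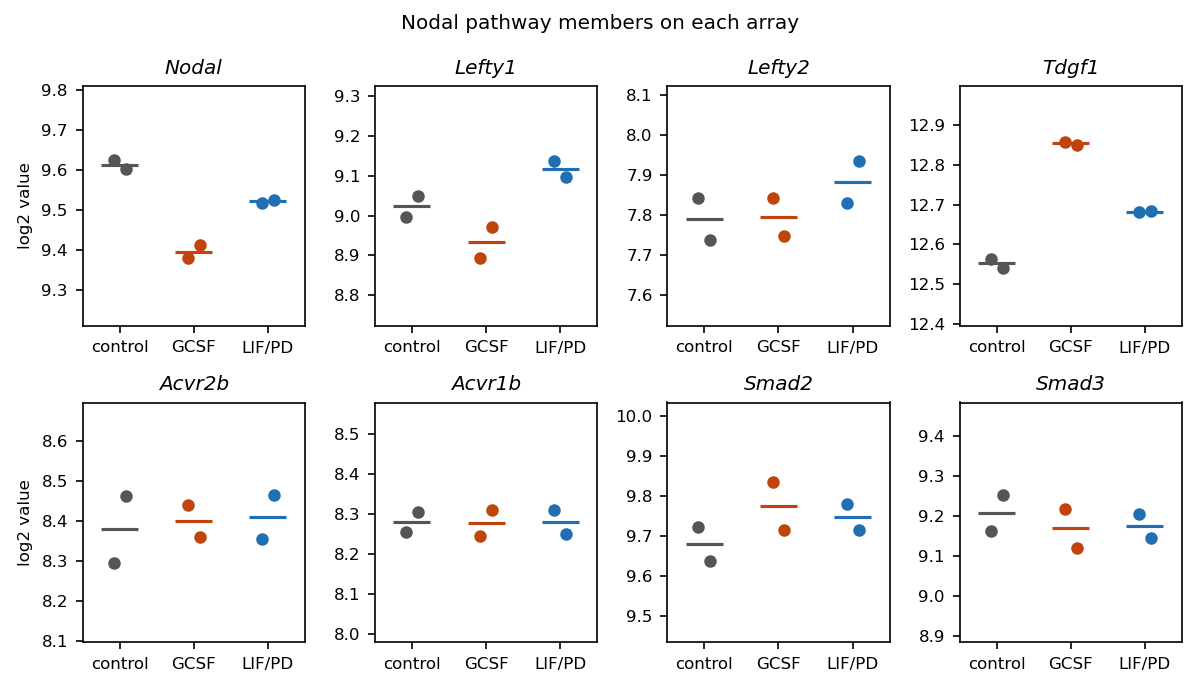
Log2 value (vertical axis) of each of the 8 genes on each array, with points for the 2 arrays of a group and a line at their mean. Every panel spans the same height of 0.6 log2 but starts at its own level, and Tdgf1 and Nodal are the panels in which both treated groups lie clear of control on the same side. Of all tested features, 41.8% lay clear of control in GCSF and 38.4% in LIF/PD.

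Tdgf1 was higher in GCSF than in control. Its feature (10597268) read 12.56 and 12.54 log2 in the controls, 12.86 and 12.85 in GCSF, and 12.68 on both LIF/PD arrays. The 3 groups did not overlap, and arrays of a group differed by at most 0.02. In a given comparison, 38.4% to 41.8% of all tested features also had groups that did not overlap. The rise in GCSF was 0.30 ± 0.03 log2 (SE of the limma fit, n = 2 arrays per group), or 1.23-fold, with a 95% interval of 0.23 to 0.37 and an adjusted p of 0.00190. Ranked by p among all tested features it stood at place 49, and by size at place 304. The call held in all 18 alternative settings, with adjusted p from 0.00118 to 0.0381.

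In LIF/PD the Tdgf1 difference from control was 0.13 ± 0.03 log2 (95% interval 0.06 to 0.20), which did not pass (limma, adjusted p = 0.443). Compared directly, LIF/PD lay below GCSF by a log2 difference of -0.17 ± 0.03 (95% interval -0.24 to -0.10, adjusted p = 0.0434). The size of that difference hardly moved, but its call was lost in 11 of 18 settings. Leaving out control replicate 1 or 2 gave an adjusted p of 0.0969 or 0.0977. Leaving out GCSF replicate 1 or 2 gave 0.140 or 0.0773, and leaving out LIF/PD replicate 1 or 2 gave 0.298 or 0.234. RefSeq lists 2 pseudogenes of Tdgf1, and the deposited values do not show whether the probes also read transcripts of these.

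Nodal, the ligand gene, ran the other way. Its feature (10363481) read 9.63 and 9.60 log2 in the controls, 9.38 and 9.41 in GCSF, and 9.52 and 9.53 in LIF/PD. These groups did not overlap either, with control highest, LIF/PD in between and GCSF lowest, the reverse of the order for Tdgf1. Non-overlap in a given comparison was again shared by 38.4% to 41.8% of all tested features. The difference of GCSF from control was -0.22 ± 0.04 log2 (95% interval -0.31 to -0.12), at place 205 by p, and it just missed the threshold (limma, adjusted p = 0.0510). It passed in 5 of 18 settings and missed in 13, with adjusted p between 0.0399 and 0.324. The differences of LIF/PD from control (-0.09 ± 0.04, adjusted p = 0.752) and from GCSF (0.13 ± 0.04, adjusted p = 0.266) did not pass.

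**Figure D2:**
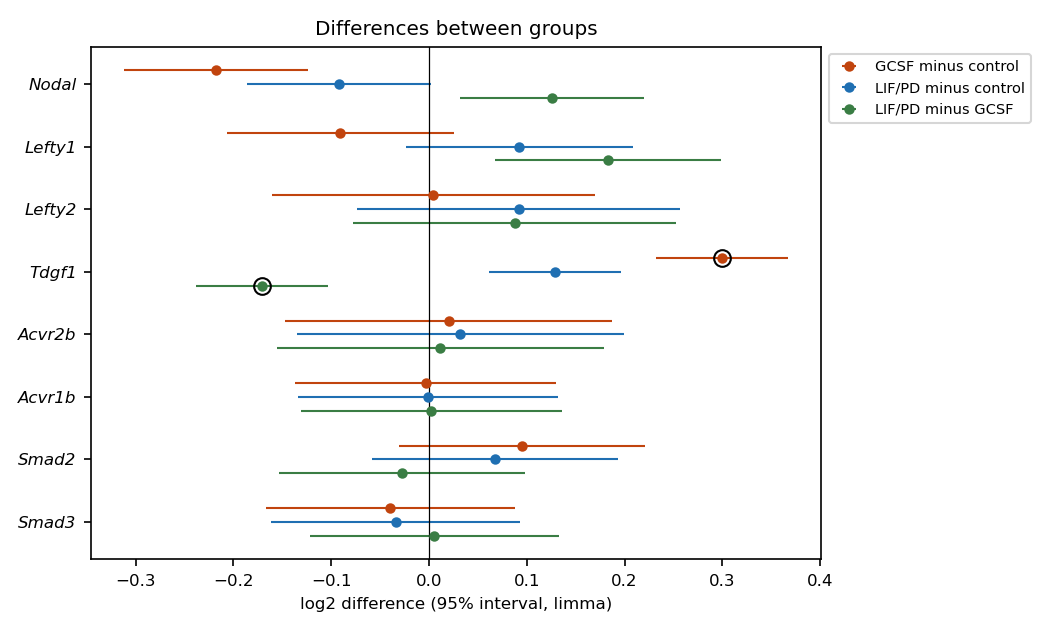
Log2 difference (horizontal axis) of each gene in the 3 comparisons, with 95% intervals from the limma fit, and an open black ring around the values with an adjusted p under 0.05. Rings are found at Tdgf1 alone, at 0.30 for GCSF minus control and -0.17 for LIF/PD minus GCSF, and the intervals of the receptor and SMAD genes all include 0.

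The Lefty genes encode the secreted inhibitors of Nodal. They lie close together on chromosome 1 and are near copies, so probes of each may read part of the other's signal. Lefty1 (10352314) read 9.00 and 9.05 log2 in the controls, 8.89 and 8.97 in GCSF, and 9.14 and 9.10 in LIF/PD. The groups did not overlap, with GCSF lowest and LIF/PD highest, but 38.4% to 41.8% of all tested features did not overlap in a given comparison. No difference passed: it was -0.09 ± 0.05 for GCSF and 0.09 ± 0.05 for LIF/PD against control (limma, adjusted p = 0.532 and 0.802). LIF/PD against GCSF gave 0.18 ± 0.05 (95% interval 0.07 to 0.30, adjusted p = 0.181), the largest log2 difference among the members in that comparison, ahead of Tdgf1 in size but with a wider error.

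Lefty2 (10352302) read 7.84 and 7.74 log2 in the controls, 7.84 and 7.75 in GCSF, and 7.83 and 7.93 in LIF/PD. All 3 groups overlapped. Its differences were 0.00 ± 0.07 for GCSF, 0.09 ± 0.07 for LIF/PD against control and 0.09 ± 0.07 between the treated groups, none of which passed. With 95% intervals of -0.16 to 0.17 and -0.07 to 0.26 against control, a change as large as that of Nodal in GCSF lies outside the first interval.

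The receptor genes showed no difference beyond the spread between arrays. Acvr2b (10590169), the type II receptor gene, read 8.30 and 8.46 log2 in the controls, 8.44 and 8.36 in GCSF, and 8.36 and 8.47 in LIF/PD. Its control arrays differed by 0.17, the widest gap between replicates among the members, and all groups overlapped. Acvr1b (10427015), the type I receptor gene, read 8.25 and 8.31, then 8.24 and 8.31, and then 8.31 and 8.25 in the same order of groups. Its group means agreed to 0.00 log2 in every comparison, with 95% intervals no wider than -0.14 to 0.14. For Acvr2b the intervals reached from -0.16 to 0.20 over the 3 comparisons, so a change as large as the Tdgf1 rise in GCSF lies outside them.

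Nor did the SMAD effector genes pass. Smad2 (10456764) read 9.72 and 9.64 log2 in the controls, 9.84 and 9.71 in GCSF, and 9.78 and 9.71 in LIF/PD. Of the 4 treated arrays 2 lay above both controls and the groups overlapped, with differences of 0.10 ± 0.05 for GCSF (limma, adjusted p = 0.551) and 0.07 ± 0.05 for LIF/PD (adjusted p = 0.864). Smad3 (10594404) read 9.16 and 9.25 in the controls, 9.22 and 9.12 in GCSF, and 9.20 and 9.14 in LIF/PD. Its arrays overlapped in every comparison and its differences lay between -0.04 and 0.01.

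Counted over the members, 1 of 8 was higher in GCSF than in control and 0 were lower, where 1.17% of all tested features were called in either direction, 0.804% as higher and 0.367% as lower. Since the members were chosen with earlier results of these data known, such counts describe them and are no test. The median difference of the members was 0.00 log2, against 0.01 over all tested features, and the median absolute differences were 0.07 and 0.06. Against control, 0 of 8 passed in LIF/PD with limma, and 0.065% of all features passed. An unadjusted p under 0.05 was found for 1 of 8 (Tdgf1) and for 6.59% of all features. Between LIF/PD and GCSF 1 of 8 was lower and 0 were higher, where 0.846% of features were called, 0.402% as higher and 0.443% as lower. In each comparison the arrays of 3 members (Nodal, Lefty1 and Tdgf1) did not overlap between groups. Because this held for 41.8%, 38.4% and 41.5% of all tested features, in the order above, it does not set the members apart. Both comparisons against control use the same 2 control arrays, so they are not independent.

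**Figure D3:**
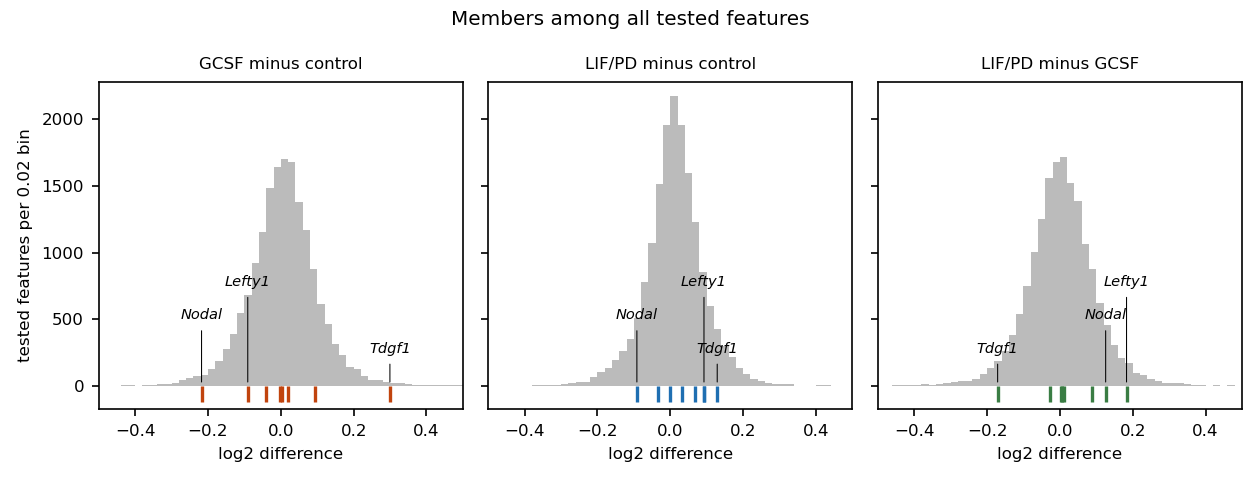
Histograms of the log2 difference of the 16912 tested features in bins of 0.02 between -0.5 and 0.5 (grey; features beyond this range are not drawn), with coloured ticks below at the 8 members, of which 3 are named. In the left panel Tdgf1 at 0.30 and Nodal at -0.22 sit in opposite tails while the other members lie in the bulk.

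At 2 arrays per group, what could have been called was limited. In GCSF against control the smallest log2 difference that would have passed was 0.16 for Tdgf1 and 0.22 for Nodal. For the other 6 it was 0.27 to 0.39. These bounds rest on the SE of the limma fit, which draws partly on other features of similar level. Because few features passed in LIF/PD, the p needed there was smaller, and the same bounds were 0.24 for Tdgf1, 0.34 for Nodal and up to 0.60 for Acvr2b. The Tdgf1 difference in LIF/PD therefore lay below the size that could be called.

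The 5 tested features most like Tdgf1, by the distance over 6 arrays after the control mean of each was subtracted, were those of Slc41a1, Epha4, Fgf4, Skap2 and Slc35f2, at distances of 0.03 to 0.07 log2. Slc41a1 encodes a magnesium transporter, Epha4 an ephrin receptor, Fgf4 a growth factor made by embryonic stem cells, Skap2 an adaptor protein and Slc35f2 a membrane transporter. Chosen for this likeness, they were higher in GCSF by 0.29 to 0.31, and their differences from control in LIF/PD were 0.11 to 0.12, of which 0 of 5 passed (limma, adjusted p from 0.626 to 0.752). Within a distance of 0.2 log2 of Tdgf1, which also takes in weaker patterns, lay 245 features, or 1.45% of those tested.

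Around the members, 52 further genes of the pathway were listed by role, of which 48 had a feature of their own and 41 passed the filter. In GCSF against control 2 of these 41 fell and 0 rose, where 0.367% of all features were called lower and 0.804% higher. Since the lists were chosen with earlier results of these data known, such counts describe the lists and are no test of them. In LIF/PD against control 0 passed with limma, where 0.065% of all features did, and 3 had an unadjusted p under 0.05, a share near the 6.59% of all features. Between LIF/PD and GCSF 2 were higher and 0 lower, where 0.402% and 0.443% of all features were. The median differences were 0.00, 0.01 and 0.02 log2, against 0.01, 0.01 and 0.00 over all features.

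The genes that passed were Smad7 and Tgif1, both among the 17 SMAD partners and regulators. Smad7 encodes the inhibitory SMAD that blocks type I receptors, and is itself switched on by the pathway as feedback. It read 9.98 and 9.95 log2 in the controls, 9.62 and 9.65 in GCSF, and 10.08 and 10.06 in LIF/PD. GCSF was lowest, at -0.33 ± 0.04 from control (limma, adjusted p = 0.00430), and LIF/PD lay 0.43 ± 0.04 above GCSF (adjusted p = 0.00210). Against control LIF/PD gave 0.10 ± 0.04, which did not pass (adjusted p = 0.719). With a covariate for each array's control block median, the difference between LIF/PD and GCSF was 0.40 and not called (adjusted p = 0.103). The fall in GCSF lost its call without control replicate 1 (adjusted p = 0.0723), with a difference of -0.32.

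Tgif1 encodes a homeodomain corepressor that restrains SMAD2-driven transcription. It read 11.70 on both controls, 11.45 and 11.38 in GCSF, and 11.63 and 11.61 in LIF/PD. The fall in GCSF was -0.28 ± 0.03 (limma, adjusted p = 0.00545) and LIF/PD lay 0.20 ± 0.03 above GCSF (adjusted p = 0.0410), while LIF/PD against control gave -0.08 ± 0.03 (adjusted p = 0.752). The fall was not called without control replicate 1 (-0.29, adjusted p = 0.0759) or 2 (-0.28, adjusted p = 0.0665), or without an intensity trend in the variances (adjusted p = 0.0628). The difference between LIF/PD and GCSF was not called when any array was left out, with an adjusted p of 0.100 or 0.101 for control replicate 1 or 2, 0.0615 or 0.0925 for GCSF replicate 1 or 2, and 0.298 or 0.197 for LIF/PD replicate 1 or 2.

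**Figure D4:**
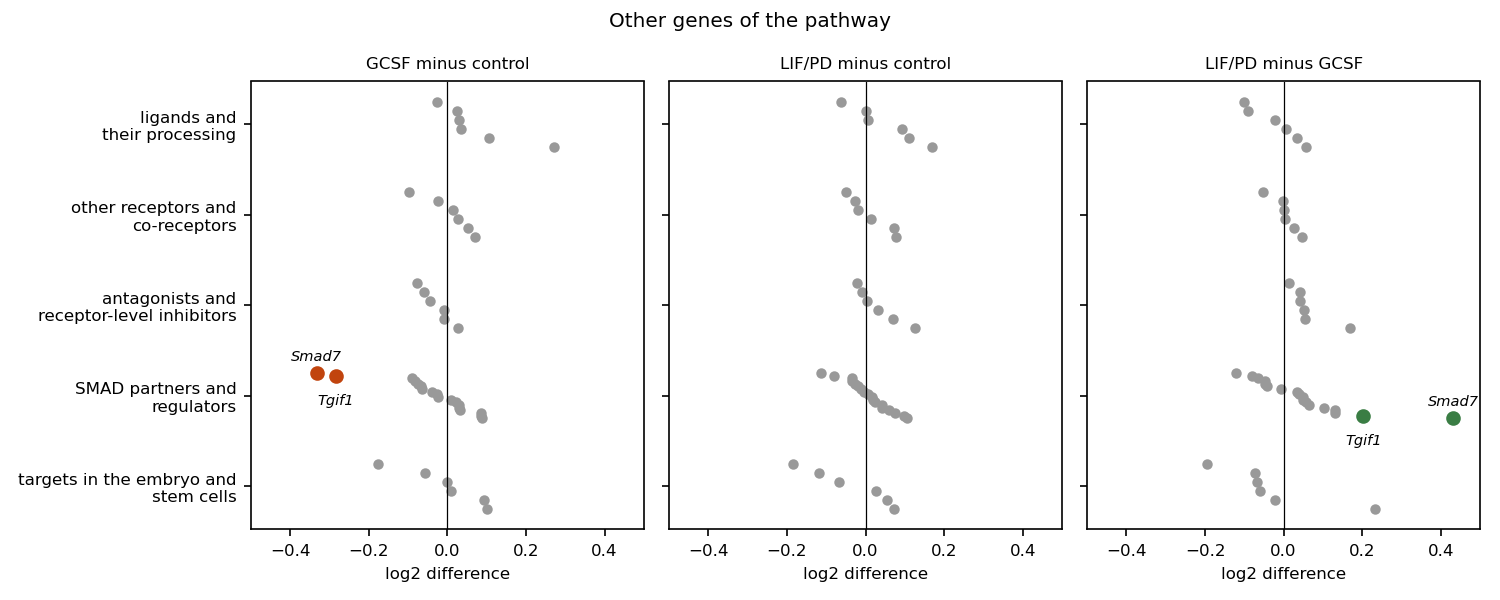
Log2 difference (horizontal axis) of every tested feature of the 5 lists of further pathway genes in the 3 comparisons, sorted within each list from top to bottom, with coloured and named points where the adjusted p was under 0.05. Smad7 and Tgif1 are the named points, low in GCSF against control and high in LIF/PD against GCSF, and no point passed in LIF/PD against control.

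No gene of the other 4 lists passed in any comparison with limma. Of 6 tested ligand and processing genes, Inhbb, which encodes the activin B subunit, gave 0.27 ± 0.07 in GCSF and 0.17 ± 0.07 in LIF/PD against control (adjusted p = 0.130 and 0.719). Its arrays read 8.14 and 8.20 log2 in the controls, 8.50 and 8.38 in GCSF, and 8.39 and 8.29 in LIF/PD. Both treated groups lay clear of control, as did 41.8% of all tested features in GCSF and 38.4% in LIF/PD. Pcsk6, a convertase that cuts the Nodal precursor, gave 0.10 ± 0.05 and 0.11 ± 0.05 (adjusted p = 0.451 and 0.752). Between LIF/PD and GCSF the genes with the smallest p were Inhbb (-0.10 ± 0.07) and the convertase gene Pcsk5 (-0.09 ± 0.08).

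Among the 6 tested further receptor genes, those with the smallest p were Eng, encoding the co-receptor endoglin (-0.10 ± 0.05), and the activin receptor gene Acvr2a (0.07 ± 0.07) in GCSF. In LIF/PD they were Tgfbr2 (0.08 ± 0.06) and Eng (-0.05 ± 0.05), and between the treated groups Tgfbr1 (-0.05 ± 0.05) and Eng (0.05 ± 0.05). Among 6 antagonists, the values were -0.08 ± 0.06 for the follistatin-like gene Fstl3 and -0.06 ± 0.06 for Ncln in GCSF. In LIF/PD Bambi, a decoy receptor gene, gave 0.13 ± 0.08 and the follistatin gene Fst 0.07 ± 0.08, and between LIF/PD and GCSF Bambi gave 0.17 ± 0.08 and Nomo1 0.04 ± 0.04. These differences were within 0.2 log2 of 0 and had unadjusted p above 0.05.

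Of 6 tested target genes, the pluripotency gene Nanog (0.10 ± 0.03, adjusted p = 0.216 with limma) and the mesendoderm gene Eomes (-0.18 ± 0.06, adjusted p = 0.262) had the smallest p in GCSF. Eomes read 8.23 and 8.30 log2 in the controls, 8.09 on both GCSF arrays, and 8.34 and 8.30 in LIF/PD. As with Smad7, GCSF was lowest for Eomes, and LIF/PD lay 0.23 ± 0.06 above it (adjusted p = 0.142), while Nanog lay -0.07 ± 0.03 from GCSF there (adjusted p = 0.394). In LIF/PD against control the values were -0.18 ± 0.09 for Mixl1 and -0.12 ± 0.08 for Fgf8, neither of which passed.

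**Figure D5:**
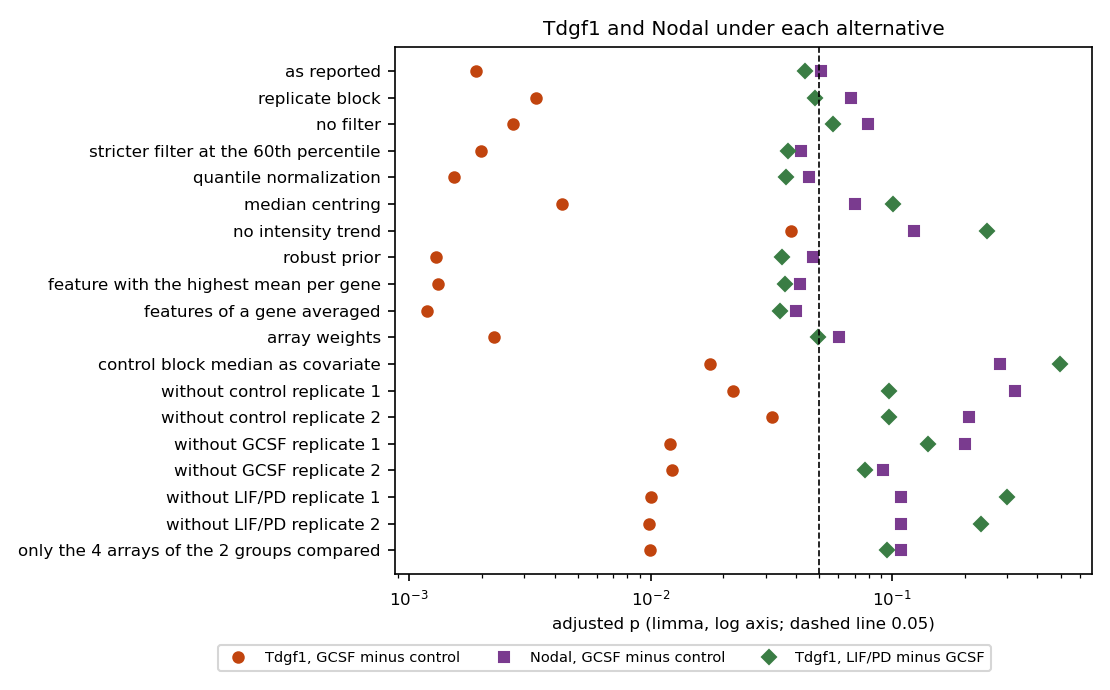
Adjusted p from limma (horizontal log axis, dashed line at 0.05) for 3 differences under the reported setting and 18 alternatives (rows). Tdgf1 in GCSF against control (circles) stays left of the line throughout, while Nodal in GCSF against control (squares) and Tdgf1 in LIF/PD against GCSF (diamonds) lie on either side of it.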

How the data were processed

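Biotin-labelled total RNA was measured on 6 single-colour arrays, 2 in each of the groups control, GCSF and LIF/PD, per the labels. The deposited values, between 2.29 and 14.50 and never negative, were read as log2 intensities. Their log base, background correction and normalization are not given in the sources used here. They were used as deposited.

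Features were named through the platform annotation. The 6573 features numbered below the first annotated one were left out as a control block, and of the other 28187 the test took those whose mean reached the 40th percentile (6.70). limma 3.58.1 in R 4.3.3 fitted 1 mean per group with trended variances, on 3 residual degrees of freedom (8.4 after moderation). Two-sided tests were used, and Benjamini-Hochberg adjustment ran over 16912 features, with a call at an adjusted p under 0.05. Exact permutation of 2 against 2 arrays cannot give a p below 0.333. Nothing in the labels states separate cultures for the 2 arrays of a group. The p-values therefore reflect the spread between these arrays alone, and that may be technical.

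All members were described. Further pathway genes were named when called, or else the 2 with the smallest p of each list, and 5 features most like each called member. Members and lists were chosen with earlier results of these data known. The fit was also run on simulated data, where most of the smallest changes simulated were missed. Alternatives covered the replicate block, filters, scaling, variance model, features per gene, array weights, a covariate and each array left out.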

Additional observations from a re-analysis of the deposited data

How the results depend on the processing

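Of 537 comparisons of a gene's difference (the 8 members, Smad7 and Tgif1) with an alternative, 505 kept their direction and side of the threshold or were never called. Of the rest, 27 lost the call, 5 gained it (all Nodal in GCSF against control) and 0 called differences reversed. Differences never called could change sign, as Lefty2 in GCSF against control did from 0.004 to -0.002 with quantile normalization. Members called in GCSF against control were 1, and 2 with the stricter filter, quantile normalization, a robust prior, the feature with the highest mean per gene or averaged features. Without each array the count was 1. Further pathway genes called there were 2, against 1 without an intensity trend and 0 to 2 with an array left out. Between LIF/PD and GCSF the counts of 1 member and 2 pathway genes became 0 and 1 without the filter, with median centring, without an intensity trend or with the 4 arrays of those groups alone, 0 and 0 with the control block median as a covariate, and 0 and 1 whichever array was left out. In LIF/PD against control no count changed. In GCSF against control all features called were 198, and 88 without control replicate 1. The control block median was 6.84 on GCSF replicate 1 and 6.58 to 6.71 on the other arrays. A left-out array leaves a group with 1 array, which is assumed to vary like the others.

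Same-numbered arrays did not deviate together (correlations 0.01, 0.08 and 0.10 over the tested features), so the numbers were not taken as pairs. With a replicate block the counts stayed at 1 member and 2 pathway genes in GCSF against control, 0 and 0 in LIF/PD against control, and 1 and 2 between LIF/PD and GCSF.

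Lefty2 lay below the stricter filter and has no value there.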
